A study of Mus musculus with 165 samples.

Results

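The 10 genes described here are the core circadian clock set Per1, Per2, Per3, Cry1, Cry2, Arntl, Clock, Nr1d1, Nr1d2 and Dbp, chosen by symbol from the 36255 genes of the expression table and not by their values. All 10 passed the filter on low values that left 17414 genes for testing. Their RNA was followed in PUER cells, 1 myeloid line derived from PU.1-/- mice. The labels give bone marrow as its source, and the study's text names both bone marrow and fetal liver. The line expresses a fusion of PU.1 with the hormone-binding part of the estrogen receptor (the ligand-binding domain), which 4-hydroxytamoxifen (OHT) activates. Every group shares this genotype and transgene. Undifferentiated cells grew in IL3 at 5 ng/ml (3 libraries). The IL3-OHT course, which leads towards macrophages, started from these cells with OHT at 200 nM and was sampled at 27 time points from 1h to 168h (81 libraries). For the course towards neutrophils, cells first spent 48 h in GCSF at 10 ng/ml in place of IL3 (GCSF 0h, 3 libraries) and then received OHT at 100 nM for the same 27 time points (GCSF-OHT, 78 libraries). OHT dose and cytokine therefore differ together between the courses and cannot be told apart. In both courses part of the medium was exchanged for medium with fresh OHT at 40h, 88h and 136h, so that the samples of 48h, 96h and 144h were taken 8 h after an exchange. For times past 24h the adherent cells were released with trypsin. The wells of a time point shared a plate, so the p-values below measure the spread between wells of 1 line, which may be technical.

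The libraries held 14600246 to 33147945 reads on genes, with a median of 21960878. The neutrophil granule list (Mpo, Elane, Ltf, Lcn2, S100a8) summed to between 102154 and 516883 normalized counts in every library of both courses, while the monocyte and macrophage list reached 10429 in IL3-OHT and 8246 in GCSF-OHT. A lymphoid list of 4 genes, 2 of them with a median of at least 5 normalized counts, summed to 51.1 to 55.5 normalized counts in undifferentiated cells, 133.1 to 187.7 at GCSF 0h, 3.37 to 65.7 in IL3-OHT and 40.8 to 284.4 in GCSF-OHT. Its T cell gene Cd3e was at 0 in every undifferentiated and GCSF 0h library, while no gene of the list was at 0 in every library of either OHT course. The part of these cells in the results was not tested. The IL3-OHT libraries of 96h and 144h stood apart from their neighbours and were left out by the study. They are left out of the values below except where stated and in the section on the medium exchange, where results are given with and without them. These libraries were not shallow, with 20052894 to 25841035 reads.

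The mammalian clock is a transcriptional feedback loop. CLOCK and BMAL1, the product of Arntl, bind E-box elements and switch on the Per and Cry genes, whose proteins then repress CLOCK and BMAL1. Nr1d1 and Nr1d2 encode the nuclear receptors REV-ERBα and REV-ERBβ, which repress Arntl through elements shared with the ROR activators, and Dbp encodes a bZIP activator that acts on D-box elements. Per1 and Per2 are also known to answer within an hour to serum, glucocorticoids and cAMP or MAPK signaling, so that a medium change can set the clock of cultured cells. In myeloid cells clock genes have been tied to the daily rhythm of leukocyte numbers and of inflammatory responses.

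The promoter windows below show which clock elements stand at the starts of the genes the results turn on. The windows were read from RefSeq promoters (250 bases before to 50 after a start, GRCm38.p6, 5′ to 3′ on the strand of the gene), which held 9 of the 10 genes, all but Per2. Capitals mark the letters searched for on both strands, which were CACGTG (E-box), CACGTT (E′-box, AACGTG on the other strand), TTATGTAA (D-box), TAGGTCA or TGGGTCA (the response element of REV-ERB and ROR) and TGACGTCA (CRE). The Per3 window at chr4:151044806-151044885 (minus strand) held the D-box letters at 2 places, and those of Per1 (chr11:69098753-69098812, plus), Cry1 (chr10:85185095-85185154, minus), Cry2 (chr2:92434206-92434265, minus) and Nr1d1 (chr11:98775378-98775437, minus) held the E-box or E′-box. The Arntl window (chr7:113207529-113207558, plus) lies just past its second start.
Per3: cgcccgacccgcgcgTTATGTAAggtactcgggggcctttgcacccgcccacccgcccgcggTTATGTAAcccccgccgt
Per1: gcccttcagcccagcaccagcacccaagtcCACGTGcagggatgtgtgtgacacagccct
Cry1: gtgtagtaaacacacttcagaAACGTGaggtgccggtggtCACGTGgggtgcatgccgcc
Cry2: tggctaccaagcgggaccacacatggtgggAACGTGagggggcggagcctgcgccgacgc
Nr1d1: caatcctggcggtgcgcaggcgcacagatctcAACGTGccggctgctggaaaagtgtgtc
Arntl: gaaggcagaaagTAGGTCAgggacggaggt

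Of the 32851 RefSeq promoters of this length, 0.938% held the D-box letters, 7.15% the E-box letters, 4.68% the E′-box letters and 6.45% the letters of the REV-ERB and ROR element. The CRE letters, present in 1.79% of promoters, were in none of the members' windows. The windows of Clock, Nr1d2 and Dbp held none of these letters. A match of letters describes the window and is no measure of binding.

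The repressor genes lie at chr11:69095217-69109960 (Per1, ENSMUSG00000020893), chr1:91415982-91459324 (Per2, ENSMUSG00000055866), chr4:151003652-151044665 (Per3, ENSMUSG00000028957), chr10:85131700-85185064 (Cry1, ENSMUSG00000020038) and chr2:92403646-92434043 (Cry2, ENSMUSG00000068742). The activator genes lie at chr7:113207465-113314126 (Arntl, ENSMUSG00000055116) and chr5:76209868-76304792 (Clock, ENSMUSG00000029238). The receptor genes lie at chr11:98767932-98775333 (Nr1d1, ENSMUSG00000020889) and chr14:18204054-18239127 (Nr1d2, ENSMUSG00000021775), and Dbp (ENSMUSG00000059824) at chr7:45705088-45710203.

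Levels are compared between genes per kilobase of merged exons (GENCODE M21, GRCm38), as normalized counts divided by exon length. In undifferentiated cells Per2 stood at 982 ± 42.2 per kb (SD, n = 3) and Cry1 at 918 ± 64.99 per kb, which do not differ beyond their spread. Cry2 followed at 179.5 ± 8.61 per kb. Dbp at 75.7 ± 12.6, Per1 at 71.3 ± 2.20 and Clock at 63.5 ± 2.22 per kb came next, and the level of Dbp lay within 1 SD of those of Per1 and Clock. Nr1d2 at 35.8 ± 2.88 and Per3 at 32.4 ± 2.40 per kb were not separated by more than their spread added together. Nr1d1 was lower at 16.8 ± 2.35 per kb and Arntl lowest at 3.73 ± 0.318 per kb. The activator Arntl thus had the fewest reads of the set, with 10 reads in its poorest library, against more than 100 reads for Per3 and 469 or more for Per2, Cry1, Cry2 and Clock. Precision follows these reads: the smallest numbers for Nr1d2 and Nr1d1 were 16 and 20 reads. Exons of the opposite strand overlap those of Dbp over 539 bases (18.01% of its exons, with Sphk2) and those of Nr1d1 over 263 bases (8.55%, with Thra). The strand setting of the counting was not stated, so reads from these stretches cannot be assigned to one gene.

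**Figure D1:**
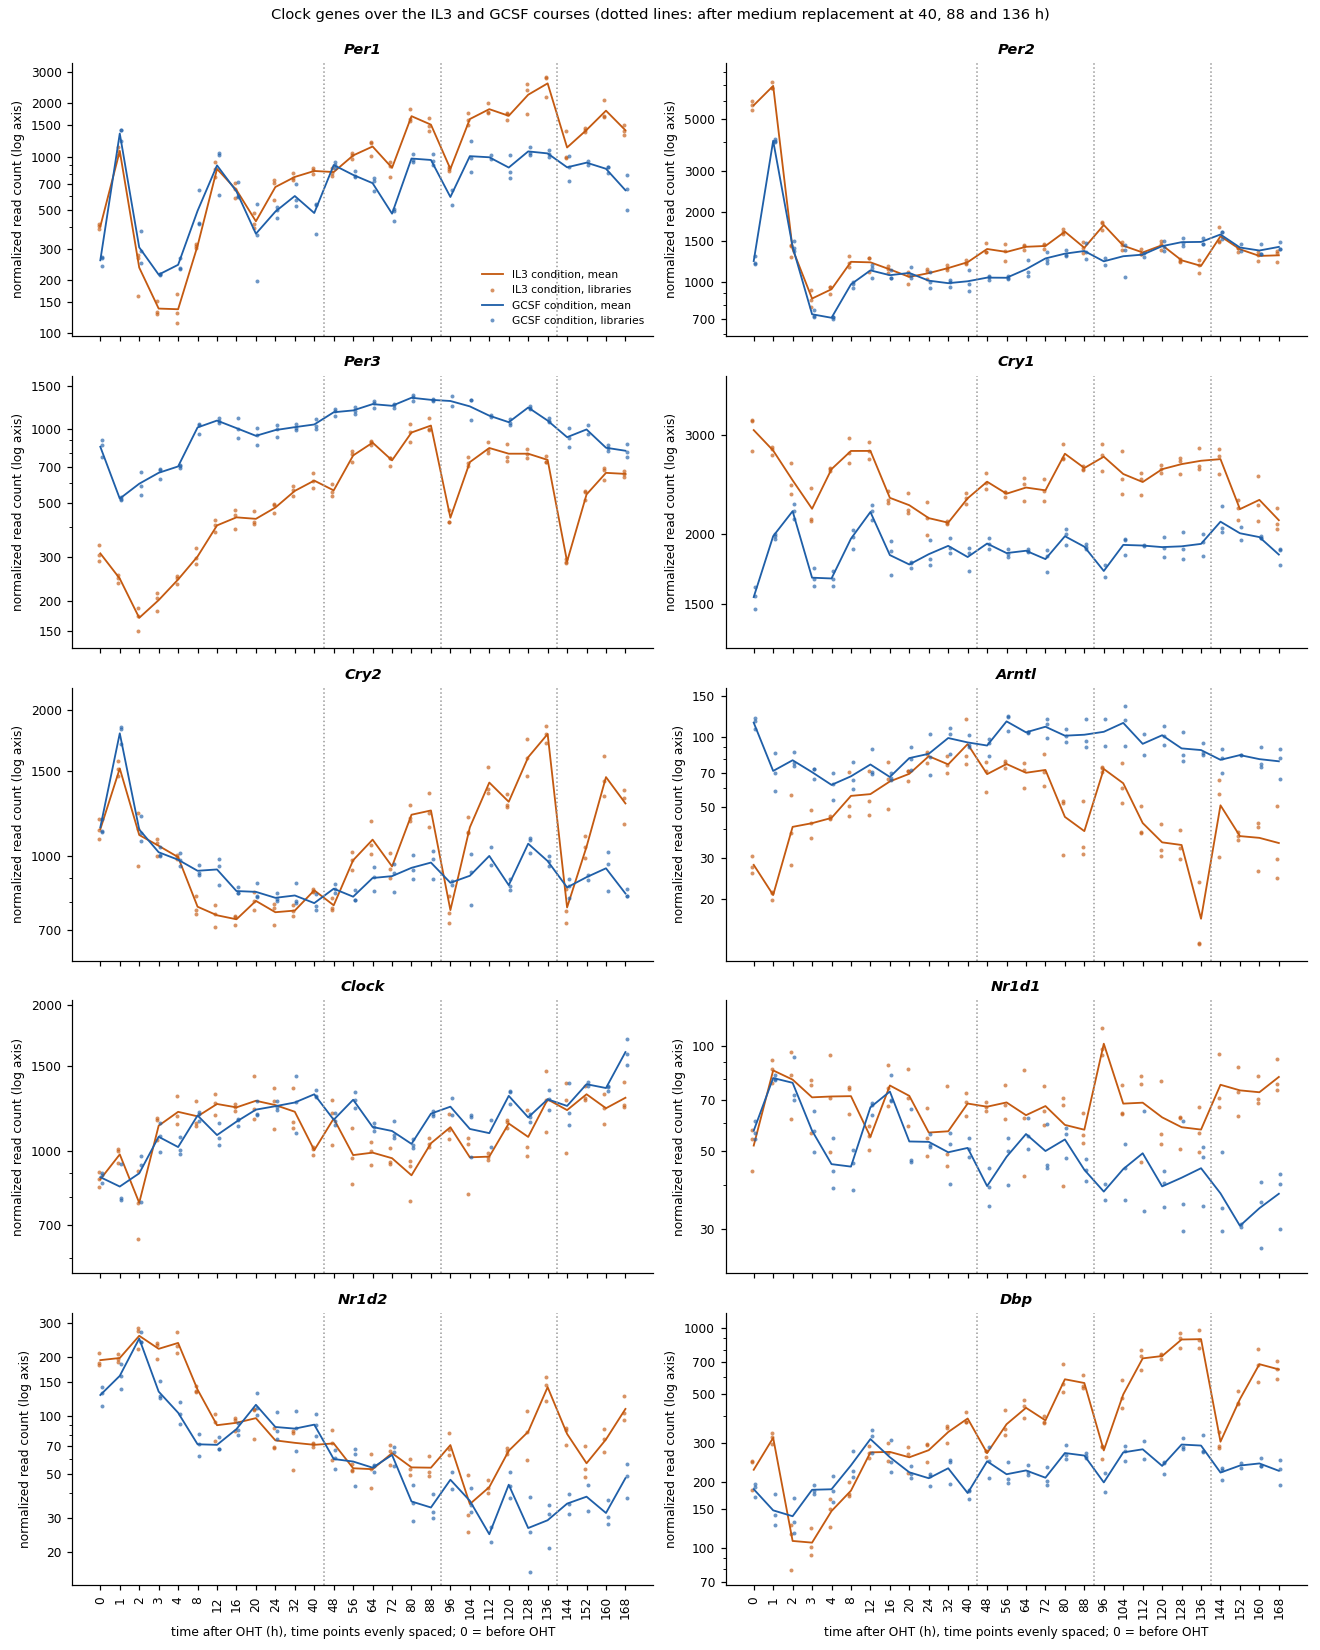
Normalized read counts (log axis) of the 10 clock genes against time after OHT (h, time points evenly spaced), with 0 for undifferentiated cells (IL3) and GCSF 0h (GCSF). Points are libraries, lines are means, and dotted lines mark the medium exchanges. Per3 is higher in GCSF than in IL3 at all shared time points, and Per1 and Per2 have an early peak at 1h in both courses, which in IL3 Per1 exceeds again late in the course.

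The first comparison asks how the clock genes changed over 48 h of GCSF before any OHT. For this step the cells were washed and reseeded, IL3 was withdrawn and GCSF was added, and the effects of these cannot be told apart. A gene passed where its adjusted p was below 0.05 and its log2 difference exceeded 0.58 in size on the log2(normalized count + 1) scale, in limma's test over all 17414 genes. Of the 10 members 6 passed, with 2 higher and 4 lower in GCSF, beside 33.7% of all genes (13.0% higher and 20.7% lower). The median difference was -0.13 over the members and -0.09 over all genes tested.

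Per2, a repressor of the loop, fell most. Its normalized counts were 5977, 5786 and 5487 in the undifferentiated libraries and 1296, 1202 and 1208 at GCSF 0h. The groups were far apart, with a log2 difference of -2.22 (SE 0.06, adjusted p = 2.14e-59). Cry1, which encodes a partner of the PER proteins, fell from 3186, 2815 and 3195 to 1608, 1475 and 1555. Its groups did not overlap, with a difference of -0.99 (SE 0.05, adjusted p = 7.18e-36). Per1 fell from 413, 403 and 389 to 240, 266 and 269, a difference of -0.64 (SE 0.16, adjusted p = 0.000442). The Per1 call was lost when the first replicates were left out, at -0.56.

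Per3 went the other way within the same family. It rose from 336, 308 and 291 to 771, 905 and 862 normalized counts, and every GCSF 0h library exceeded every undifferentiated one. The log2 difference was 1.44 (SE 0.07, adjusted p = 5.12e-39), which is a 2.71-fold higher level. Arntl, the BMAL1 gene, rose from 27.5, 30.7 and 25.998 to 108.1, 120.4 and 116.5, the largest rise of the set at 2.00 (SE 0.19, adjusted p = 5.45e-17). The other activator gene, Clock, differed by 0.01 and Cry2 also by 0.01. Nr1d1 differed by 0.15 and Dbp by -0.28, and none of these 4 genes passed the test. Nr1d2 passed narrowly at -0.60 (SE 0.19, adjusted p = 0.0054), with 183.2, 186.2 and 211.5 before and 140, 112 and 131.4 after GCSF. It no longer passed the fold threshold without the second or the third replicates, at -0.53 and -0.55, nor with edgeR, at -0.56. The 2 rises therefore concerned Per3 and Arntl, and the 4 falls concerned Per2, Cry1, Per1 and Nr1d2.

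Of the 23 tested genes of an accessory clock list (modifiers, paralogs and output factors of the loop), 3 rose and 9 fell over the pre-treatment, with a median of -0.42. The 3 largest changes were falls of Bhlhe40 (-2.99), a repressor at E-boxes, of Rora (-2.56), an activator of Arntl, and of Npas2 (-2.02), a paralog of Clock.

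**Figure D2:**
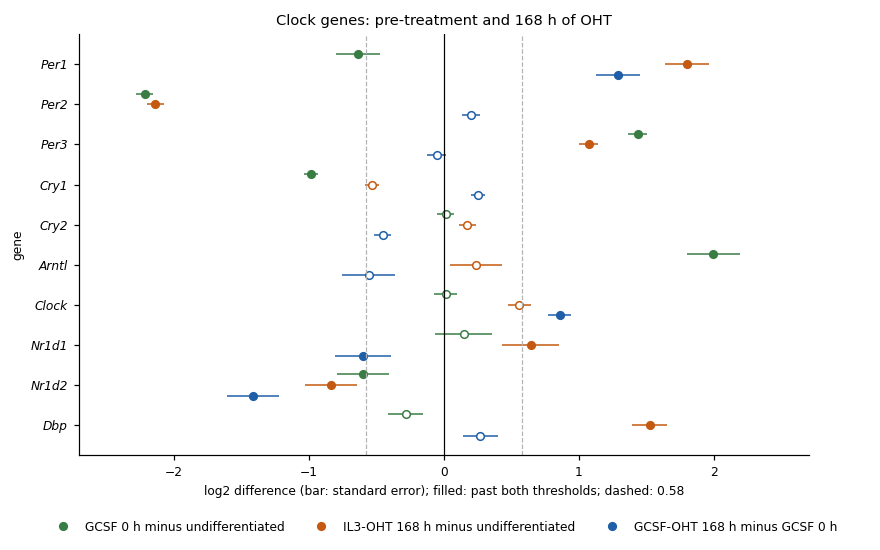
Log2 differences of the 10 clock genes (x axis, log2(normalized count + 1), bars are standard errors) for GCSF 0h minus undifferentiated cells, IL3-OHT 168h minus undifferentiated cells and GCSF-OHT 168h minus GCSF 0h; filled points passed both thresholds. Per2 lies near -2 both after GCSF alone and at IL3-OHT 168h, where Per3 lies above 1 in both.

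The start of OHT was followed within the first hours by pulses of Per1 and Per2. In GCSF, 5 of the 10 members passed between 0h and 1h (6.05% of all genes did), and in IL3 2 did (4.42% of all genes). Per1, an immediate responder of the loop, stood at 240, 266 and 269 at GCSF 0h and at 1223, 1414 and 1415 at 1h, a log2 step of 2.38. It was back at 290.6, 378.4 and 248.8 at 2h, a step of -2.16. In IL3 Per1 rose from 413, 403 and 389 to 1018, 1080 and 1127 at 1h and fell to 277, 266 and 162 at 2h, steps of 1.42 and -2.23. In both courses the 1h libraries thus lay above all those of 0h and 2h.

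Per2 started from unlike levels in the courses. It rose from 1296, 1202 and 1208 to 4003, 4108 and 4042 at 1h in GCSF (step 1.71), then fell to 1359, 1509 and 1401 at 2h and to 717, 764 and 710 at 3h. In IL3 Per2 stood at 6793, 6826 and 7270 at 1h, not past the fold threshold from its high start. It then dropped to 1435, 1445 and 1284 at 2h and to 788, 844 and 928 at 3h, steps of -2.33 and -0.70. From 3h on the means of Per2 in the courses lay within a narrow band, between 705 (GCSF 4h) and 1651 (IL3 80h) normalized counts, and no later step passed in either course.

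The remaining members moved less in these hours. Cry2, another repressor, rose in GCSF from 1118, 1126 and 1188 to 1825, 1849 and 1702 at 1h and was at 1074, 1208 and 1117 at 2h, steps of 0.65 and -0.66. Per3 fell in GCSF from 771, 905 and 862 to 515, 530 and 518 at 1h, a step of -0.70, the opposite sign to Per1 and Per2. In IL3 Per3 went from 336, 308 and 291 to 247, 255 and 236 at 1h and 151, 172.7 and 187.5 at 2h, no step of which passed, and the 2h mean of 170 was its lowest in either course. Arntl fell at 1h in GCSF from 108.1, 120.4 and 116.5 to 70.1, 85.3 and 58.3 (-0.70), and in IL3 it rose between 1h and 2h from 19.8, 21.2 and 21.5 to 28.0, 38.5 and 56.3 (0.89). Nr1d1 rose at 1h in IL3 from 57.6, 54.2 and 43.7 to 85.6, 78.3 and 90.8 (0.71). Nr1d2 peaked later, with 271, 240 and 239 at 2h in GCSF between 160.8, 137.3 and 184.04 at 1h and 150.6, 126.3 and 123.2 at 3h. Dbp, the output gene, went from 321, 334 and 297 at 1h to 127.2, 115.5 and 79.02 at 2h in IL3, a step of -1.58. Per1, Per2 and Cry2 thus had their early maxima at 1h and Nr1d2 at 2h, while Per3 had its lowest means at 1h or 2h.

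Whether the first hour differed between the courses was tested as an interaction, a comparison added after the values were seen. It passed for 3 members, beside 2.81% of all genes. The step from 0h to 1h was larger in GCSF for Per2 by 1.44 (SE 0.09, adjusted p = 3.44e-27) and for Per1 by 0.96 (SE 0.23, adjusted p = 0.00195). For Dbp it was lower in GCSF by -0.82 (SE 0.19, adjusted p = 0.000744). Among the accessory genes Bhlhe40 passed (0.74). Genes known to answer to serum moved in the same hour, with 4 of 7 rising in GCSF, led by Fosb (6.99), Fos (2.595) and Nr4a1 (2.31), and 3 of 7 in IL3, led by Egr1 (1.44), Fos (1.17) and Fosb (0.86). Of 7 tested genes known to answer to glucocorticoids, 2 rose in GCSF, Dusp1 (2.49) and Sgk1 (1.10), and 4 in IL3, led by Errfi1, Sgk1 and Dusp1. The part of medium handling in these pulses was not tested, since no vehicle-treated series was analysed here.

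After 12h the Per1 course rose in IL3 far above its start. Of all steps between neighbouring time points, the members passed in 27 of 250 in IL3 and 21 of 270 in GCSF, where 3.65% and 1.81% of all gene steps passed. Per1 alone held 9 of these steps in each course and Nr1d2 held 6 in IL3 and 5 in GCSF, whereas Cry1 and Clock had none in either. The 120h libraries of both courses carry another prefix in their names than all others, for a reason not stated. The Nr1d2 steps included 112h to 120h in both courses and 120h to 128h in GCSF. After its trough of 165.8, 113.7 and 130 at 4h in IL3, Per1 reached 936, 848 and 769 at 12h. It then stepped up again from 764, 889 and 936 at 72h to 1847, 1599 and 1633 at 80h (0.97). Its highest mean in the study was 2597 ± 364 (SD, n = 3) at 136h, 19.02 times the 4h mean, and 1 other time point, 128h, lay within 1 SD of it. In GCSF the same interval from 72h to 80h took Per1 from 503, 491 and 430 to 937, 950 and 1036 (1.04), but its means later stayed at or below 1069, the value of 128h.

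Dbp followed a similar line in IL3. From 92.3, 101.02 and 122.8 normalized counts at 3h it climbed to 883, 816 and 982 at 136h, 8.48 times as high, and it also stepped up between 72h and 80h (0.61). In GCSF its means stayed between 139.1 (2h) and 313 (12h), and no step passed. Cry2 in IL3 went from a lowest mean of 738 ± 18.2 at 16h to 1786 ± 69.8 at 136h. In GCSF, Cry2 had no higher mean after 1h than its 1133 at 2h. Per1, Dbp and Cry2 therefore had their highest IL3 means at the same time point.

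Between 136h and 152h, with the 144h libraries left out, 5 members passed in IL3 (16.0% of all genes did). Per1 fell from 2820, 2177 and 2794 to 1420, 1376 and 1446 (-0.87), Cry2 from 1790, 1714 and 1854 to 988, 1096 and 1044 (-0.78), and Dbp from 883, 816 and 982 to 452, 516 and 459 (-0.91). Arntl rose from 12.8, 23.7 and 12.9 to 37.3, 38.7 and 35.9 (1.19), and Nr1d2 fell from 144.2, 158.2 and 119.4 to 53.2, 48.4 and 69.6 (-1.29). The libraries of 136h and 152h did not overlap for these 5 genes, which adds little, since the test that picked them used the same libraries. The last medium exchange, at 136h, falls at the start of this interval.

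Per3 in IL3 climbed gradually, from its minimum at 2h to 560 ± 26.1 at 32h, 780 ± 40.9 at 56h and 1032 ± 66.0 at 88h (SD, n = 3), without any single step that passed. The 88h mean was 6.06 times the 2h mean, and 80h lay within 1 SD of it. Later means were lower, at 733 to 836 from 104h to 136h and at 656 ± 16.2 at 168h. In GCSF Per3 was 1339 ± 38.98 at 80h, its highest level in the study, with 88h within 1 SD, and it was 815 ± 51.8 at 168h. Both courses of Per3 thus had their highest means at 80h and 88h. Arntl had a broad maximum, at 40h in IL3 (92.99 ± 23.5, with 5 other time points within 1 SD) and at 56h in GCSF (116.5 ± 9.65, with 3 within 1 SD). Its IL3 means then fell to 16.4 ± 6.27 at 136h.

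Nr1d2 had its highest mean at 2h and a low at 104h or 112h in both courses. From 258 ± 33.6 at IL3 2h it went to 35.2 ± 12.7 at 104h, a 7.34-fold range, and from 250 ± 18.4 at GCSF 2h to 24.6 ± 3.07 at 112h (n = 2), a 10.2-fold range. In IL3 it rose again to 140.6 ± 19.7 at 136h, a time point at which Arntl was at its lowest. Nr1d1 moved over 1.64-fold in IL3 and 2.64-fold in GCSF, Clock over 1.68-fold and 1.90-fold, and Cry1 over 1.46-fold and 1.42-fold. Over the whole course the members that passed were 8 in IL3 and 9 in GCSF, with Cry1 failing in both and Nr1d1 in IL3, where 69.7% and 47.7% of all genes passed. These shares are high for all genes, so the counts say little about the members.

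By 168h the courses had left the clock genes at different levels relative to their own starts. Cells at 168h had been released with trypsin and those at the starts had not, and the effects of handling and of the course cannot be told apart in these differences. Across the interval in which trypsin came into use, from 24h to 32h, no member passed with limma in IL3 (0.356% of all genes did) or GCSF (0.172%), and 2 members in IL3 and 0 in GCSF had an unadjusted p under 0.05. Of the 7 serum-responsive genes 6 rose over that interval in IL3 and 5 in GCSF. In IL3 6 members passed against undifferentiated cells (25.4% of all genes) and in GCSF 4 passed against GCSF 0h (24.8% of all genes). Per1 was higher at both ends, by 1.81 (SE 0.16) in IL3 (1508, 1325 and 1392 normalized counts) and by 1.29 (SE 0.16) in GCSF (781, 652 and 500). Per2 was lower in IL3 by -2.14 (SE 0.06, at 1220, 1333 and 1369) and differed by 0.20 in GCSF (1486, 1389 and 1386). Both courses of Per2 thus ended near its level at GCSF 0h. Per3 was higher in IL3 by 1.07 (SE 0.07; 640, 672 and 656) and differed by -0.05 in GCSF (872, 803 and 770).

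Among the other members, Dbp was higher in IL3 by 1.53 (SE 0.13; 711, 651 and 589) and differed by 0.27 in GCSF (228, 252 and 193). Nr1d2 was lower at both ends, by -0.84 (95.01, 127.2 and 103.7) and -1.42 (49.2, 37.8 and 56.5). Nr1d1 was higher in IL3 by 0.64 (adjusted p = 0.00648) and lower in GCSF by -0.60. Both Nr1d1 calls were lost without the third replicates, at 0.44 and -0.48. Clock rose in GCSF by 0.86 to 1507, 1587 and 1707 normalized counts, its highest mean in the study, and stood just under the fold threshold in IL3 at 0.56. It passed in IL3 without the first or the third replicates, at 0.59 and 0.61, and with edgeR, also at 0.59. Cry1 differed by -0.53 and 0.25, Cry2 by 0.18 and -0.45, and Arntl by 0.24 and -0.56, none past both thresholds. Arntl in GCSF passed without the first or second replicates, at -0.63 and -0.62, and with upper-quartile scaling, at -0.58.

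The test of the difference between these changes, as an interaction of OHT with condition at 168h, passed for 7 of the 10 members (25.7% of all genes). The change was more positive in GCSF for Per2 by 2.34 (SE 0.09) and for Cry1 by 0.78 (SE 0.07). It was more negative in GCSF for Dbp by -1.26, Nr1d1 by -1.24, Per3 by -1.13, Arntl by -0.80 and Cry2 by -0.63. Since the courses start from different levels, the interaction also carries the change over the GCSF pre-treatment, which for Per2, Per3, Cry1 and Arntl had the opposite sign to the interaction. The Arntl call was lost without the second replicates (-0.63, adjusted p = 0.13) and the Nr1d1 call without the third (-0.93, adjusted p = 0.0508). Per1 at -0.51 passed without the first replicates, at -0.69, and Nr1d2 at -0.58 with edgeR, at -0.59.

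Of the 23 accessory genes 11 passed in each course at 168h (5 higher and 6 lower in IL3, 7 higher and 4 lower in GCSF). Npas2 fell by 2.51 in IL3 and by 1.86 in GCSF. Bhlhe41 and Ciart, both repressors of the loop, rose in IL3 by 1.92 and 1.82, while Bhlhe40 rose in GCSF by 2.04. The interaction passed for 9 of the 23, led by Bhlhe40 (2.29), Rora (1.81) and Usp2 (1.48).

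Between the courses, Per3 and Arntl were higher and Dbp lower in GCSF. Averaged over the 25 shared time points, 3 members passed, beside 24.5% of all genes (9.34% higher and 15.1% lower), with a log2 difference of 0.89 for Per3 (SE 0.01), 0.83 for Arntl (SE 0.04) and -0.70 for Dbp (SE 0.03). Every GCSF-OHT library of Per3 lay above every IL3-OHT library of the same time at 25 of 25 time points, as 4.53% of all genes did. The difference was largest at 2h, at 1.81 on the log2 scale, and smallest at 168h, at 0.31. Arntl had no overlap at 20 of 25 time points, where over all genes and shared time points 25.1% lay wholly above and 27.8% wholly below, with differences from 0.02 at 24h to 2.40 at 136h.

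Cry1 was the reverse case, with every IL3 library above every GCSF library at 25 of 25 time points (3.55% of all genes), although its mean difference of -0.37 (SE 0.01) did not reach the fold threshold. Dbp was lower in GCSF without overlap at 17 of 25 time points, by as much as -1.66 at 120h (libraries with another name prefix), and higher in GCSF at 3h by 0.80. Per1 was lower in GCSF without overlap at 16 time points and higher at 4, and its mean difference was -0.41. Nr1d2 differed by -0.49, Nr1d1 by -0.43, Cry2 by -0.17, Per2 by -0.14 and Clock by 0.09 in the mean. Among the accessory genes 4 were higher and 5 lower in GCSF, led by Hlf (1.55), a relative of Dbp, Arntl2 (-1.32) and Timeless (1.17). Monocyte and macrophage markers and neutrophil granule markers changed along both courses over the ranges given above, and their part in these differences was not tested. In cultures of mixed cells, fewer cells of a type and less RNA per cell cannot be told apart.

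**Figure D3:**
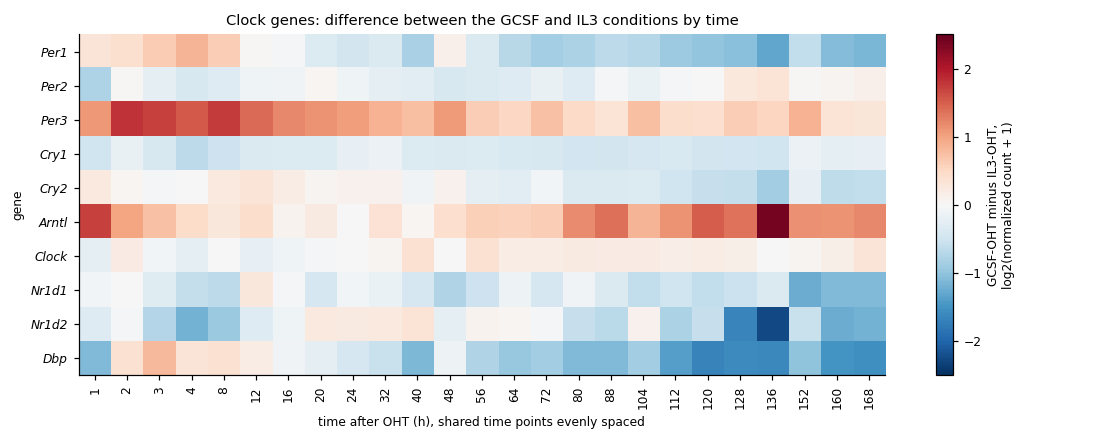
GCSF-OHT minus IL3-OHT in log2(normalized count + 1) for the 10 clock genes (y axis) at the 25 shared time points (x axis, h, evenly spaced), red where GCSF is higher. The Per3 line is red throughout, with its largest value of 1.81 at 2h and its smallest of 0.31 at 168h. The Cry1 line is blue throughout.

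The medium exchanges offered a further comparison, the samples 8 h after an exchange (48h, 96h and 144h) against their neighbours (40h, 56h, 88h, 104h, 136h and 152h). Whether the samples of 40h, 88h and 136h were taken before or after the exchange of that hour was not stated. Those of 56h, 104h and 152h also follow an exchange, so the baseline is not free of it. Here all libraries entered, including those of IL3-OHT 96h and 144h. In IL3, 3 members passed, all lower (11.1% of all genes passed, and 4.47% of all genes were lower). Dbp was lower by -0.83 (SE 0.06), Per3 by -0.81 (SE 0.03) and Per1 by -0.61 (SE 0.08). The Per1 value moved under the fold threshold without the first replicates, at -0.57. Cry2 at -0.55 and Arntl at 0.41 did not pass, and the other 5 members lay between 0.10 and 0.29.

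The size of these dips rested on the libraries that stand apart. Per3 was at 1108, 995.1 and 992.4 at 88h, at 420, 468 and 418 at 96h and at 707, 767 and 725 at 104h. It was again at 734, 735 and 775 at 136h, at 287, 295 and 285 at 144h and at 559, 514 and 551 at 152h. At both dips all libraries lay below all those of the neighbouring time points, and the differences were -0.998 at 96h and -1.14 at 144h. Dbp dipped from 883, 816 and 982 at 136h to 290, 285 and 337 at 144h before 452, 516 and 459 at 152h. At 48h alone, without those libraries, no member passed with limma, edgeR or DESeq2 (1.60% of all genes passed with limma), although each of the 3 tools gave 4 members an adjusted p under 0.05 that missed the fold threshold (5 had an unadjusted p under 0.05 with limma). With limma the 4 were Per3 (adjusted p = 6.85e-05), Dbp (0.00121), Cry2 (0.00635) and Clock (0.0261, higher by 0.23). The values at 48h were -0.47 for Dbp, -0.30 for Per3, -0.21 for Cry2 and -0.17 for Per1, lower in each case as at 96h and 144h. At 96h 6 members passed (17.5% of all genes) and at 144h 5 did (15.3%). Nr1d1 and Nr1d2 passed at 96h (0.68 and 0.71), with values of 0.23 and -0.14 at 144h, and Arntl passed at 144h (0.96), with 0.57 at 96h.

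In GCSF no member passed over the 3 exchanges with limma, edgeR or DESeq2, none had an unadjusted p under 0.05, and the values lay between -0.17 and 0.08 (1.79% of all genes passed). At 96h alone Per1 passed at -0.73 (4.66% of all genes did), with 650 and 530 normalized counts against 898, 1028 and 943 at 88h and 982, 1217 and 816 at 104h. The difference between the conditions, a comparison added after the values were seen, passed for Per3 (-0.79, SE 0.05) and Dbp (-0.71, SE 0.09), beside 5.58% of all genes. The exchange renewed medium and OHT at once, and these cannot be told apart. Whether the deviation of the 96h and 144h libraries came from the exchange or from something else in them was not tested.

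Serum-responsive genes were higher after the exchanges in IL3 for 4 of 7, led by Fosb (1.68), Fos (1.02) and Egr1 (0.89), and in GCSF for 1, Nr4a1 (0.74). In IL3 this also rested on the libraries that stand apart, with none of the 7 past the thresholds at 48h, 4 at 96h and 5 at 144h. Of the glucocorticoid-responsive genes 1 passed in IL3, Tsc22d3 (-0.58), and none of 7 in GCSF. Of the accessory genes 3 were lower in IL3, among them Fbxl21 (-0.75) and Btrc (-0.61), and 1 in GCSF, Arntl2 (-0.60).

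**Figure D4:**
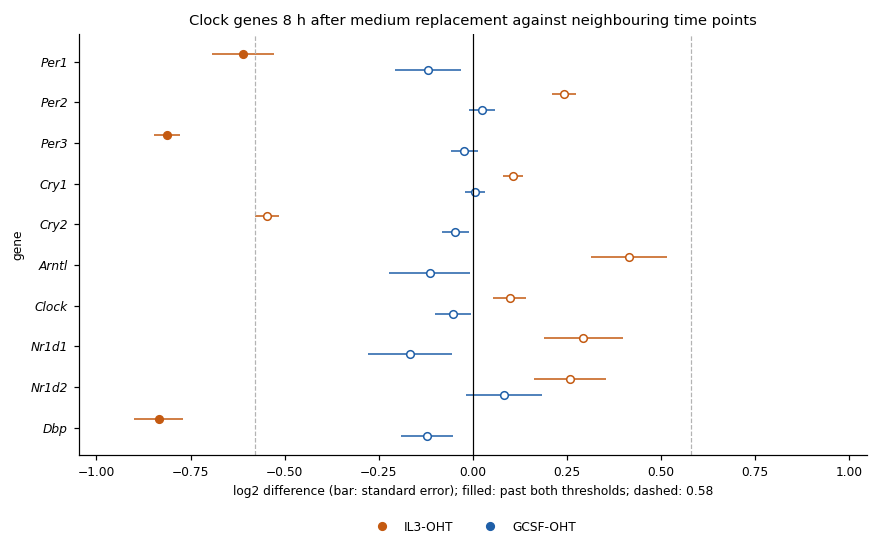
Log2 differences of the 10 clock genes (x axis, bars are standard errors) between the samples 8 h after a medium exchange and their neighbouring time points, in IL3-OHT and GCSF-OHT; filled points passed both thresholds. Dbp, Per3 and Per1 are filled and low in IL3, and no member is filled in GCSF.

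Whether the RNAs moved in a 24-h rhythm was tested from 32h on, as a harmonic beside a smooth trend over the time-point means. No member passed in either course with limma, beside 0.190% of all genes in IL3 and 0.953% in GCSF. Of all 17414 genes 1986 in IL3 and 3513 in GCSF had an unadjusted p under 0.05, and so did 1 member in each course. In IL3 this was Per1, with a peak-to-trough size of 0.41 on the log2 scale (adjusted p = 0.424), and in GCSF it was Nr1d2, with 0.45 (adjusted p = 0.23). When the samples taken after medium exchanges (48h, 96h and 144h) were left out, Per1 in GCSF passed with 0.69 (adjusted p = 0.0189). These times share the same phase of a 24-h period, so effects of the exchanges and a rhythm cannot be told apart in them. With the IL3 libraries of 96h and 144h included, no member passed in IL3. Per1 then had 0.68 (limma, adjusted p = 0.0786), and Per1, Per3, Cry2 and Dbp had an unadjusted p under 0.05. Sampling every 8 h gave only 3 points per period, and cells were not synchronized by a stated treatment, so a rhythm that differs between cells would not appear in these means.

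The members did not move as a single unit. Over the means of 54 groups of condition and time (log2 scale), Per1 was most like Dbp (Pearson r = 0.84), Per3 most like Arntl (0.57) and Nr1d1 most like Nr1d2 (0.60). The nearest member was Cry2 for Per2 (0.45), Nr1d1 for Cry1 (0.49), Dbp for Cry2 (0.47) and Per3 for Clock (0.25). The most opposite pairs were Per3 with Nr1d2 (-0.74) and Cry1 with Arntl (-0.74). The 54 groups pool both courses, so level differences between the courses enter these values as well as movement over time. Cry1 and Arntl stood at -0.42 along IL3 alone and at -0.03 along GCSF alone. Per3 and Arntl stood at 0.08 along IL3 alone. Along the IL3 course alone (25 time points) Per1 and Dbp reached 0.95, Per3 and Dbp 0.87, Per3 and Nr1d2 -0.86, and Cry2 and Arntl -0.83. Along the GCSF course (27 time points) Per3 and Arntl reached 0.72 and Nr1d2 and Dbp -0.78. From 12h on (20 time points in IL3 and 22 in GCSF), past the early pulses, several of these values shrank. Per3 and Nr1d2 then stood at -0.47 in IL3 and -0.22 in GCSF (-0.68 over all of GCSF), so that their opposition rested largely on the first hours, and Nr1d2 and Dbp stood at -0.52 in GCSF. In IL3 from 12h on, Per3 and Dbp had 0.71, Per1 and Dbp 0.94, Cry2 and Arntl -0.84, and Cry2 and Dbp 0.97 (0.60 over the whole course). Per3 and Arntl kept 0.72 in GCSF but had -0.36 in IL3. The genes share libraries and size factors at each point, and time points of a course are not independent, so these values describe the courses and carry no test.

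**Figure D5:**
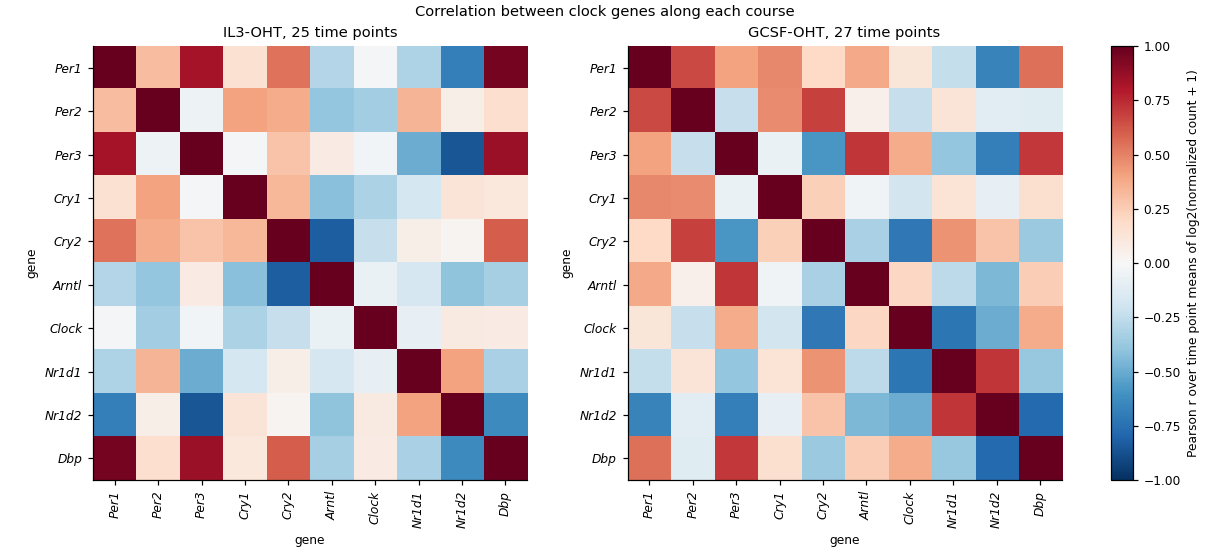
Pearson r between the 10 clock genes over time-point means of log2(normalized count + 1) along IL3-OHT (25 time points, left) and GCSF-OHT (27 time points, right), both axes listing the genes. Per1, Per3 and Dbp are close together in IL3, and Per3 with Nr1d2 is negative in both.

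The genes whose pattern was most like Per3 over the same 54 groups, among 10646 genes with a mean of at least 50, were Apaf1 (r = 0.97), Palm (0.96), Lipe (0.96), Lin28a (0.96) and Sephs2 (0.95). All 5 were closer to Per3 than any clock gene was, which adds little, since they were picked as the nearest of 10646 genes. On the scale of normalized counts 3 of them stayed among the nearest 5, along IL3 alone 2 and along GCSF alone 1. From 12h on, none of them was among the nearest 5 in either course. The steps of the courses ran in parallel for some members, with r = 0.88 for Per1 and 0.91 for Per2 over 24 steps between neighbouring shared times (1h to 168h, without 96h and 144h). From 12h on (19 steps) the value was 0.69 for Per1 and 0.0064 for Per2, and for Per2 the parallel steps were thus those of the first hours. For Per3 it was 0.21 over all 24 steps.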

How the data were processed

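Poly(A) RNA-Seq libraries of PUER cells were assigned to condition, time point and replicate number by their labels. The titles of the GCSF 0h libraries name OHT, while the study's methods place 0h just before OHT was added. These libraries were taken as cells without OHT. The deposited values are normalized signal: the authors quantified reads with Salmon on GRCm38 (mm10) and scaled them per library with DESeq2 size factors, the versions of which are not given in the sources used here. How transcripts were summed to genes was not stated. Dividing by the value of 1 read (0.652 to 1.84) recovered whole reads for 100% of values within 0.01 reads, and the automatic check of this could not be applied to 7 libraries whose size factor lies near 1. Genes with at least 5 normalized counts in 1 library or more were kept (17414). The main test was limma 3.58.1 (R 4.3.3) on log2(normalized count + 1), with 1 mean per condition and time point over all 165 libraries less the 6 of IL3-OHT 96h and 144h (all for the medium exchange), variance trend and Benjamini-Hochberg adjustment over all genes. Fold changes on this scale understate the change of low genes. edgeR 4.0.16 (quasi-likelihood, TMM) and DESeq2 1.42.0 on the recovered reads were alternatives, beside pseudocounts of 0.5 and 5, other filters, upper-quartile scaling, a replicate block and leaving out replicates. The limma tests of the GCSF pre-treatment, the medium exchange in IL3 and the harmonic in GCSF were checked on simulated data. The other tests were not. The members, gene lists and tests were chosen with earlier results of these data known. All 10 members are named in each comparison, of the accessory list up to 3 genes with the largest called difference, and the 5 genes most like Per3. Some genes of the lists are not reported here.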

Additional observations from a re-analysis of the deposited data

Results flagged for a closer look

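The change from the start of OHT to 168h differed between the conditions, by the limma test of the interaction, for 7 members. The difference (GCSF minus IL3, log2 scale) was 2.34 for Per2, 0.78 for Cry1, -0.63 for Cry2, -0.80 for Arntl, -1.13 for Per3, -1.24 for Nr1d1 and -1.26 for Dbp. The GCSF course started from cells in which Per2 and Cry1 were already low and Per3 and Arntl already high.

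The first hour of OHT differed between the conditions, by the same kind of test, for 3 members, with 1.44 for Per2, 0.96 for Per1 and -0.82 for Dbp.

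The samples 8 h after a medium exchange differed from their neighbours more in IL3 than in GCSF for Per3, by -0.79 (IL3 minus GCSF), and for Dbp, by -0.71. These values rest on the IL3-OHT 96h and 144h libraries, without which no member passed in IL3.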

How the results depend on the processing

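The replicate numbers did not pair the libraries (mean correlation of same-numbered deviations 0.000165, and 59 libraries correlated best with their own number), and with the replicate block 6 members passed in the GCSF pre-treatment, as without it. Of 1110 member values under the alternatives, 1074 kept their direction and side of the threshold. With the time points just before each exchange as the only baseline, 5 members passed after the exchange in IL3 and 6 differed by condition (1534 genes in all), and Nr1d2 turned to -0.13 in IL3 and to -0.20 by condition. Without 48h, 96h and 144h, 1 member passed the harmonic in GCSF. Values near 0 that did not pass turned sign when replicates were left out. In the pre-treatment the values then ran from -0.017 to 0.065 for Cry2 (-0.0089 without the second) and from -0.017 to 0.059 for Clock, at GCSF 168h from -0.17 to 0.0073 for Per3 (0.0028 without another), and after the exchanges in GCSF from -0.023 to 0.021 for Cry1, from -0.20 to 0.0061 for Per1 and from -0.047 to 0.016 for Per3. With single replicates left out, the members that passed were 5 in the pre-treatment, 6 to 7 at IL3 168h, 3 to 5 at GCSF 168h, 20 to 26 in the IL3 steps and 16 to 22 in the GCSF steps. Over all genes the IL3 steps gave 24426 calls with 96h and 144h (15889 without), the exchange in GCSF 136 with a pseudocount of 5 (311 with 1), and the harmonic 1 to 99 genes in IL3 (33 in the main setting) and 17 to 293 in GCSF (166). The causes of these shifts were not tested. Depth limits Arntl, Nr1d1 and Nr1d2 most.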
